A study of Homo sapiens with 4 samples.

Results

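The genes described here build cholesterol, take it up, sense it and move or store it inside the cell. They are 31 genes out of 27452 in the deposited tables, picked by symbol for their place in the pathway. No measured value entered that rule, but earlier results of these data were known when the genes were chosen. The 31 genes comprise 20 enzymes of synthesis, 2 genes of lipoprotein uptake, 5 genes of sterol sensing and 4 genes of intracellular transport and storage. Of these, 30 had enough reads to be tested, among 15199 genes tested in all. Not all genes of these roles are among the 31. RNA sequencing was run on 2 libraries labelled STAT3 shRNA, from cells carrying a short hairpin RNA against STAT3, and 2 libraries labelled Ctrl shRNA, from cells carrying a control hairpin. By their labels both lines were made from HepG2, an established human hepatoma line, and were kept in the same medium with serum. The study asked how lowering STAT3, a transcription factor switched on by cytokine and growth factor receptors, changes other genes. The sources used here do not give the hairpin sequences, the number of clones behind each line or whether the libraries come from separate cultures. The p-values therefore set each difference between the groups only against the spread of these 4 libraries within a group, which may be technical. That spread was estimated with information shared over all tested genes.

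Cells make cholesterol from acetyl-CoA. The mevalonate enzymes build the isoprenoid unit, prenyl transferases and squalene enzymes join these units and close the ring, and a last group of sterol enzymes trims lanosterol to cholesterol. The protein made from SREBF2 is the pathway's main activator: SCAP carries it from the endoplasmic reticulum to the Golgi for cleavage when sterol is scarce, and INSIG proteins hold it back when sterol is plentiful. The liver is known as a major site of cholesterol synthesis and of its disposal as bile acids and lipoproteins.

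Total read counts were 25862027 and 17694642 in the STAT3 shRNA libraries and 19283150 and 20133064 in the Ctrl shRNA libraries, and 3 reads, the floor for a gene with none, amounted to 0.113 to 0.163 CPM (reads scaled to library size with TMM factors). STAT3 itself was at 34.7 and 36.1 CPM with STAT3 shRNA, against 245 and 244 CPM with Ctrl shRNA, a log2 fold change of -2.79 ± 0.09 (SE; edgeR adjusted p = 3.28e-07). Markers of liver cells did not bear out the label of the line. ALB, which encodes albumin, had 0 and 3 reads in the STAT3 shRNA libraries and 0 and 0 in the Ctrl shRNA libraries, APOA1 had 1 and 2 against 0 and 0 reads, and TF, which encodes transferrin, had 24 and 8 against 38 and 41 reads. The other 3 markers of the liver list are not analysed here. The cells are therefore called by their label only. Of the markers of other cell types, the macrophage gene CD68 averaged 25.96 ± 2.71 and 12.41 ± 2.78 CPM (SD) with STAT3 and Ctrl shRNA, the collagen gene COL1A1 14.7 ± 0.5 and 40.6 ± 3.6 CPM, and the smooth muscle actin gene ACTA2 7.78 ± 1.94 and 3.71 ± 1.04 CPM, all 3 past the threshold. CDH5, VWF, DES, CD79A and HBA1 were each at 1.75 CPM or below in all 4 libraries. Whether these markers bear on the results for cholesterol genes was not tested. In such bulk samples, fewer cells of a type and less RNA per cell cannot be told apart.

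With STAT3 shRNA the synthesis enzymes were mostly lower and the cholesterol-esterifying enzyme SOAT1 was higher. Of the 30 members tested, 17 were lower and 2 were higher at an adjusted p under 0.05 (edgeR quasi-likelihood test, Benjamini-Hochberg adjustment over all 15199 genes), and 11 did not pass. Among all tested genes 18.7% were lower and 16.8% were higher. The members' median log2 fold change was -0.35, against 0.02 over all tested genes. Of the 20 synthesis enzymes 14 were lower and 1 was higher, with a median of -0.63, and of the 10 other members tested 3 were lower and 1 was higher. Without the first STAT3 shRNA library 11 members were lower and 1 was higher, and so were 11 and 1 without the second, while 2527 and 2567 genes passed in all, against 5396 with every library. Either way 1 STAT3 shRNA library was left, which was assumed to vary as the 2 Ctrl shRNA libraries do, since they alone then gave an estimate of spread. Chi-square per degree of freedom was 4.203 within the STAT3 shRNA pair and 13.92 within the Ctrl shRNA pair. The fold changes are given beside the calls lost this way. Together the 20 enzymes took 0.198% and 0.201% of the reads with STAT3 shRNA, against 0.269% and 0.284% with Ctrl shRNA. In CPM the 2 groups did not overlap for 27 of the 30 members, 23 of them lower and 4 higher with STAT3 shRNA, but groups of 2 libraries often separate, and 70.8% of all tested genes did so.

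**Figure D1:**
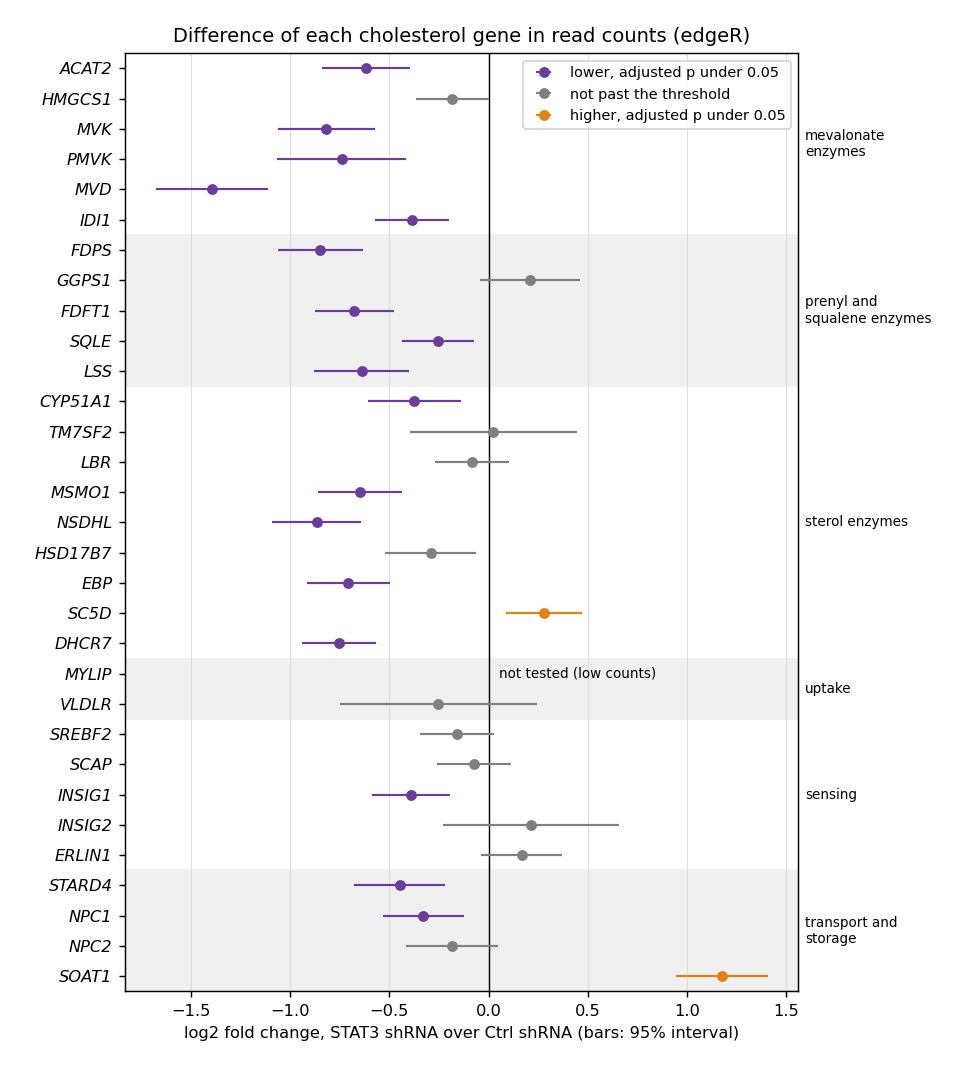
Log2 fold change of each gene, STAT3 shRNA over Ctrl shRNA, from read counts (edgeR, 2 libraries a group). Points are estimates and bars 95% intervals, and colours mark genes lower, higher or not past an adjusted p of 0.05. MVD lies furthest to the left at -1.40 and SOAT1 furthest to the right at 1.18, and MYLIP had too few reads to be tested.

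Promoter windows show what the members share in sequence. RefSeq (GRCh38.p14) gave windows of 300 bases, from 250 before to 50 after an annotated start, for 27 of the 31 members. Each window was searched on both strands for 4 motifs: CCAAT, the box bound by the factor NF-Y, a known partner of the SREBF proteins; GGGCGG, the Sp1 box; TCACNCCAC, an SRE-like sequence of the kind those proteins bind; and TTCNNNGAA, the palindrome of STAT proteins. A CCAAT box was present in 20 of the 27 members (74.1%), against 39.7% of the 27305 genes in the promoter table and 43.3% of the 10185 tested genes that had a window. Among tested members, 11 of the 14 lower ones with a window held it, as did 2 of the 2 higher ones and 6 of the 10 that did not pass. The Sp1 box was in 25 of the 27 members (92.6%), against 48.3% of the genes in the table and 77.1% of those tested. The SRE-like sequence was found in 1 member, SREBF2, and in 1.39% of all genes, and the STAT-like palindrome in 1 member, GGPS1, and in 9.38% of all genes. These shares are descriptions and no test was made of them. No match in a member's window overlapped one of another motif. The absence of a match says only that these letters are not in the window.

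The sequences below are shown because they come from 4 examples of lower enzymes with at least 3 CCAAT boxes (MVD, NSDHL, FDPS and MSMO1), from the member with the SRE-like match (SREBF2) and from the member with the largest rise (SOAT1). Each is a stretch of its RefSeq window in GRCh38.p14, written from 5′ to 3′ on the gene's strand, with CCAAT or its reverse complement ATTGG in capitals and, in SREBF2, also the SRE-like match.
MVD, chr16:88663142-88663280, minus strand: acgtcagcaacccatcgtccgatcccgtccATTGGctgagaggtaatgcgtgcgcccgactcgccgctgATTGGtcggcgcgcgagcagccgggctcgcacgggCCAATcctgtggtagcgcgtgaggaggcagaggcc
NSDHL, chrX:152830813-152831013, plus strand: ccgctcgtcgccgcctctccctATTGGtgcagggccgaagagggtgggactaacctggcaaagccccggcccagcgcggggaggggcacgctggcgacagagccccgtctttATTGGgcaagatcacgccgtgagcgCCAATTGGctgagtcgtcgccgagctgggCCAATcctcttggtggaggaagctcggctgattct
FDPS, chr1:155308660-155308849, plus strand: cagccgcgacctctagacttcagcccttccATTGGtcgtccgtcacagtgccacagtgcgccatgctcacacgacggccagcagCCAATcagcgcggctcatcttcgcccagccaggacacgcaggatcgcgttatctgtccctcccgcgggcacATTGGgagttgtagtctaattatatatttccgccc
MSMO1, chr4:165327454-165327669, plus strand: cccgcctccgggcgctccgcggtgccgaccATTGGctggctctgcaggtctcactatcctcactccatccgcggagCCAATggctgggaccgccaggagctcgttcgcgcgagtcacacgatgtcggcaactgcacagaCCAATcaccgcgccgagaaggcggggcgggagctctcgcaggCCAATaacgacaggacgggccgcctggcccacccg
SREBF2, chr22:41832942-41833033, plus strand: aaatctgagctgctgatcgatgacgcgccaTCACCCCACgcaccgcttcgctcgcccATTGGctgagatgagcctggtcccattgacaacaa
SOAT1, chr1:179293682-179293746, plus strand: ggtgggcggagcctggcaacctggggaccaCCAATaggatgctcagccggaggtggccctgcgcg

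MVD and FDPS held 3 boxes each in these stretches, MSMO1 4, and NSDHL 5, of which 2 overlap on opposite strands. MVK, EBP and IDI1 also held at least 3, and PMVK, which was lower as well, held none, so nothing is read from the number of boxes about the size of a difference. The SRE-like match of SREBF2 began 133 bases before the start and its CCAAT box 106 before, and SREBF2 did not pass the test. SOAT1 held 1 box in its window, 85 bases before the start.

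**Figure D2:**
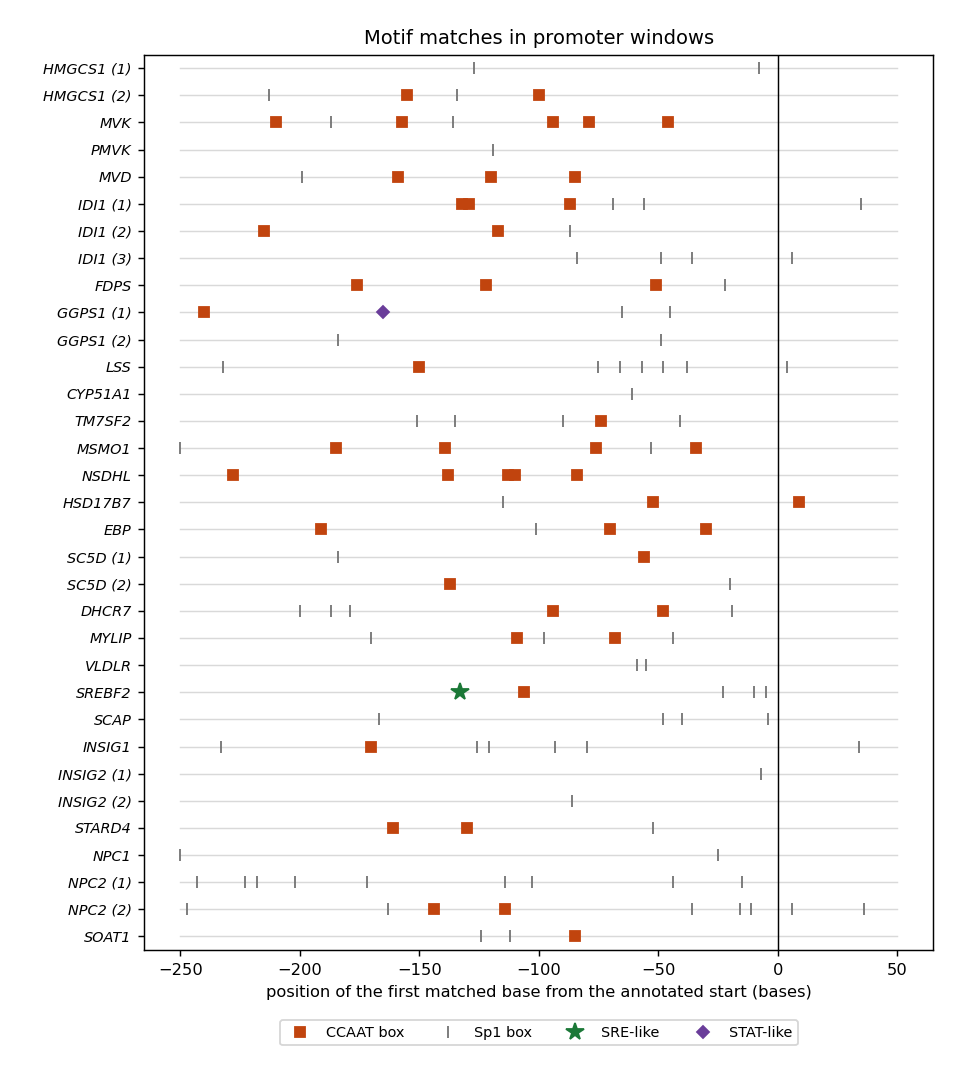
Position of each motif match in the promoter windows of the members that hold one, in bases from the annotated start (vertical line); genes with several annotated windows have a row for each. CCAAT boxes, the squares, lie mostly within 250 to 30 bases before the start, the SRE-like match (star) is in SREBF2 and the STAT-like match (diamond) in GGPS1.

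All 6 mevalonate enzymes had both STAT3 shRNA libraries below both Ctrl shRNA libraries, and 5 of the 6 passed the test. Over all tested genes, the groups did not overlap for 70.8%, in either direction, and 18.7% were lower by the test. The first enzyme is the thiolase ACAT2, at 89.2 and 84.2 CPM with STAT3 shRNA, against 123 and 144 CPM with Ctrl shRNA (log2 fold change -0.62 ± 0.10, SE, adjusted p = 0.00172). HMGCS1, the synthase that makes HMG-CoA, was at 92.5 and 97.1 CPM, against 108 and 107 CPM, and did not pass (-0.18 ± 0.08, interval -0.37 to 0.00, adjusted p = 0.110; 0.0309 without the first Ctrl shRNA library). Mevalonate kinase, MVK, stood at 35.1 and 35.2 CPM with STAT3 shRNA, against 56.7 and 67.3 CPM with Ctrl shRNA (-0.82 ± 0.11, adjusted p = 0.000692). Phosphomevalonate kinase, PMVK, had 32.9 and 33.0 CPM, against 46.5 and 63.8 CPM (-0.74 ± 0.14, adjusted p = 0.00445). In both kinases the STAT3 shRNA libraries were nearly equal and the Ctrl shRNA libraries lay further apart.

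MVD, the decarboxylase that yields isopentenyl diphosphate, differed most. Its gene spans chr16:88651935-88663161 on the minus strand (GENCODE 29, GRCh38). It had 27.4 and 25.8 CPM with STAT3 shRNA, against 61.9 and 78.3 CPM with Ctrl shRNA, and was 2.63-fold lower (log2 fold change -1.40 ± 0.13, adjusted p = 0.000109). Both STAT3 shRNA libraries lay far below both Ctrl shRNA libraries, which also differed from each other. The isomerase IDI1, which converts that product to its reactive form, was at 92.7 and 97.2 CPM, against 127 and 122 CPM (-0.39 ± 0.08, adjusted p = 0.00697). The fall of IDI1 lost the threshold without the first STAT3 shRNA library (-0.35, adjusted p = 0.135), without the second (-0.42, 0.0726) and in FPKM (-0.37, 0.0517), and that of PMVK in FPKM (-0.70, 0.0505).

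Of the 5 enzymes that join isoprenoid units and make squalene and lanosterol, 4 were lower and GGPS1 was not. The share lower over all tested genes was 18.7%. FDPS, which makes farnesyl diphosphate, was at 277 and 275 CPM with STAT3 shRNA, against 457 and 537 CPM with Ctrl shRNA (-0.85 ± 0.09, adjusted p = 0.000318). GGPS1 extends farnesyl to geranylgeranyl diphosphate, which leads to protein prenylation and away from sterols. It had 38.8 and 37.7 CPM, against 36.1 and 30.2 CPM, with both STAT3 shRNA libraries above both Ctrl shRNA ones and no pass (0.21 ± 0.11, adjusted p = 0.180). GGPS1 passed in 1 of 15 alternatives, the one without the first Ctrl shRNA library. Over the alternatives its log2 fold change ranged from 0.01 to 0.35. Squalene synthase, FDFT1, the first step committed to sterols, had 239.6 and 242 CPM, against 362 and 408 CPM (-0.68 ± 0.09, adjusted p = 0.000646). SQLE, the epoxidase that is a known control point of the pathway, fell least of the 4, at 128 and 122 CPM with STAT3 shRNA, against 146 and 152 CPM with Ctrl shRNA (-0.26 ± 0.08, adjusted p = 0.0374). Its call was lost under 7 of 15 alternatives, among them those without the first (-0.29, adjusted p = 0.225) or the second (-0.22, 0.348) STAT3 shRNA library. Lanosterol synthase, LSS, was at 128 and 132 CPM, against 182 and 223 CPM (-0.64 ± 0.11, adjusted p = 0.00211).

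The 9 sterol enzymes split into 5 that fell, 1 that rose and 3 that did not pass, where 18.7% of all tested genes were lower and 16.8% higher. NSDHL, which with MSMO1 removes methyl groups from the ring, had 41.6 and 38.4 CPM with STAT3 shRNA, against 68.9 and 77.2 CPM with Ctrl shRNA (-0.87 ± 0.10, adjusted p = 0.000359). MSMO1 had 50.8 and 55.5 CPM, against 86.8 and 79.7 CPM (-0.65 ± 0.09, adjusted p = 0.00109). The isomerase EBP was at 168 and 172 CPM, against 257 and 298 CPM (-0.71 ± 0.09, adjusted p = 0.000699), and DHCR7, a reductase of the last steps, at 134 and 129.7 CPM, against 215 and 229.8 CPM (-0.75 ± 0.08, adjusted p = 0.000290). In these 4 genes the higher STAT3 shRNA library lay well below the lower Ctrl shRNA library. The demethylase CYP51A1 had 161 and 168 CPM, against 234 and 193 CPM (-0.38 ± 0.10, adjusted p = 0.0215), a smaller difference that lost the threshold without the first STAT3 shRNA library (-0.34, adjusted p = 0.174), without the second (-0.41, 0.101) and in FPKM (-0.25, 0.192).

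SC5D, the desaturase acting just before DHCR7, went the other way. It had 69.7 and 70.4 CPM with STAT3 shRNA, against 58.0 and 57.5 CPM with Ctrl shRNA (0.28 ± 0.08, adjusted p = 0.0305), and the libraries of a group were nearly equal. This rise lost the threshold with an offset for GC content (0.07, adjusted p = 0.491), with DESeq2 (adjusted p = 0.0824), in FPKM (0.14, 0.297) and without the first (0.29, 0.247) or the second (0.27, 0.272) STAT3 shRNA library. The ketoreductase HSD17B7 stood at 25.9 and 24.3 CPM, against 30.2 and 31.3 CPM, just outside the threshold (-0.29 ± 0.10, adjusted p = 0.0517; 0.0131 without the first Ctrl shRNA library). The pair of sterol reductases that do the same step, LBR and TM7SF2, did not pass. LBR, also an anchor of the nuclear lamina, had 81.0 and 83.5 CPM, against 89.2 and 85.1 CPM (-0.08 ± 0.08, interval -0.27 to 0.10, adjusted p = 0.470). TM7SF2 had 6.94 and 8.32 CPM, against 6.89 and 8.05 CPM, with overlapping groups and a wide interval of -0.40 to 0.45 (adjusted p = 0.932).

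In sterol sensing, INSIG1 was lower and the other 4 genes did not pass. This share of 20% lower is near the 18.7% of all tested genes, so the count is no result about sensing genes. INSIG1, which retains SCAP in the endoplasmic reticulum and is itself a known target of SREBF2, had 158 and 154 CPM with STAT3 shRNA, against 193 and 216 CPM with Ctrl shRNA (-0.39 ± 0.09, adjusted p = 0.00864), a call that was lost without the first (-0.41, adjusted p = 0.0859) or the second (-0.37, 0.117) STAT3 shRNA library. Its paralog INSIG2 had 10.5 and 15.5 CPM, against 10.7 and 11.6 CPM, with overlapping groups (0.21 ± 0.20, interval -0.23 to 0.66, adjusted p = 0.431). SREBF2 was at 305 and 288 CPM, against 320.5 and 342 CPM (-0.16 ± 0.08, interval -0.35 to 0.03, adjusted p = 0.164). Over the alternatives its log2 fold change ranged from -0.24 to 0.01. It passed only without the first Ctrl shRNA library, and its direction turned with the GC offset. SCAP had 83.3 and 80.2 CPM, against 84.8 and 87.1 CPM (-0.07 ± 0.08, interval -0.26 to 0.11, adjusted p = 0.529), and its direction turned with the GC offset (0.21, adjusted p = 0.0492). ERLIN1, part of the complex that degrades sterol-sensing proteins, had 62.7 and 68.4 CPM, against 59.0 and 57.8 CPM (0.17 ± 0.09, adjusted p = 0.181).

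The 2 members grouped under uptake were low. The receptor gene SCARB1, outside the members, had 175 and 175 CPM with STAT3 shRNA, against 300.3 and 332 CPM with Ctrl shRNA. VLDLR, a lipoprotein receptor, had 4.88 and 6.14 CPM with STAT3 shRNA, against 7.37 and 5.70 CPM with Ctrl shRNA, with overlapping groups (-0.25 ± 0.22, interval -0.75 to 0.24, adjusted p = 0.403). MYLIP, the ubiquitin ligase that sends lipoprotein receptors to degradation, had 9 and 16 reads, against 6 and 9 reads, and was left out of the test.

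Of the 4 genes of transport and storage, STARD4 and NPC1 were lower, SOAT1 was higher and NPC2 did not pass. Over all tested genes 18.7% were lower and 16.8% higher. SOAT1, at chr1:179293714-179358680 on the plus strand (GENCODE 29, GRCh38), esterifies cholesterol with fatty acids for storage in droplets. It was at 394 and 396 CPM with STAT3 shRNA, against 191 and 158 CPM with Ctrl shRNA, 2.26-fold higher (1.18 ± 0.10, adjusted p = 9.37e-05). Its STAT3 shRNA libraries were nearly equal and each more than 2-fold above either Ctrl shRNA library. STARD4, a cytosolic sterol carrier, had 30.95 and 31.3 CPM, against 45.0 and 39.9 CPM (-0.45 ± 0.10, adjusted p = 0.00943). NPC1 and NPC2 release cholesterol from the lysosome: NPC1, in its membrane, had 41.6 and 42.7 CPM, against 52.1 and 53.6 CPM (-0.33 ± 0.09, adjusted p = 0.0210). NPC2, in its lumen, had 35.6 and 40.5 CPM, against 42.3 and 44.0 CPM (-0.18 ± 0.10, interval -0.42 to 0.05, adjusted p = 0.198). Without the first or the second STAT3 shRNA library the calls of STARD4 (-0.44 and -0.46, adjusted p = 0.108 and 0.1002) and NPC1 (-0.31 and -0.35, adjusted p = 0.240 and 0.189) were lost. In FPKM STARD4 did not pass (-0.31, limma, adjusted p = 0.135) and the difference of NPC1 turned to 0.08 (adjusted p = 0.608).

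Levels of different genes can be compared only per length, for which the deposited FPKM were used. FDPS was the most abundant member in both groups, at 298 and 304 FPKM with STAT3 shRNA and 498 and 651 FPKM with Ctrl shRNA. EBP followed at 203 and 214 FPKM, against 317 and 365 FPKM, and FDFT1 at 155 and 162 FPKM, against 221 and 269 FPKM. These 3 kept the first 3 places in both groups. SOAT1 held place 4 of 31 with STAT3 shRNA, at 114 and 111 FPKM, against place 19 with Ctrl shRNA, at 41.6 and 39.4 FPKM, while MVD held place 23, at 19.9 and 23.8 FPKM, against place 9, at 48.8 and 91.8 FPKM. The 2 Ctrl shRNA values of MVD were far apart, which leaves its place there loose. TM7SF2, VLDLR and MYLIP closed the order in both groups, MYLIP at 0.12 and 0.33 FPKM, against 0.11 and 0.16 FPKM.

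**Figure D3:**
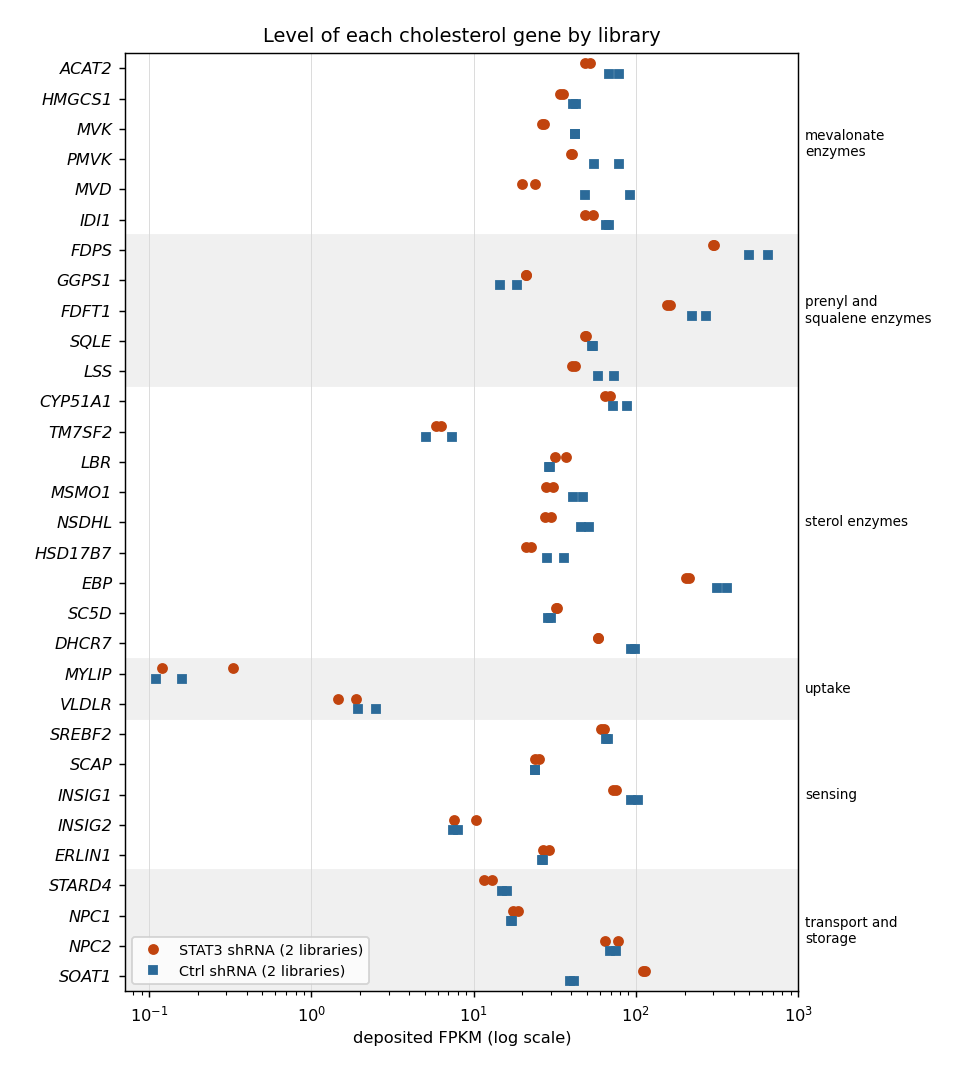
Deposited FPKM of each gene in each library (log axis), STAT3 shRNA as circles above Ctrl shRNA as squares, genes in pathway order. FDPS, EBP and FDFT1 lie furthest to the right, and SOAT1 stands at 114 and 111 FPKM with STAT3 shRNA, against 41.6 and 39.4 FPKM with Ctrl shRNA.

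The length implied by reads and FPKM was not the same in all libraries, so the 2 tables need not give the same fold change. For NPC1 it was 2431 and 2365 bases in the STAT3 shRNA libraries, against 2995 and 2956 bases in the Ctrl shRNA libraries. For SOAT1 it was 3570 and 3696 bases, against 4492 and 3812 bases, and for MVD 1418 and 1128 bases, against 1240 and 810 bases. On log2(FPKM + 1) the difference of SOAT1 was 1.45 (limma, adjusted p = 0.00275), and that of MVD was -1.58 (adjusted p = 0.0288). In FPKM 11 members were lower and SOAT1 was higher, where 1186 genes were lower and 1349 higher among all 15199 tested.

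**Figure D4:**
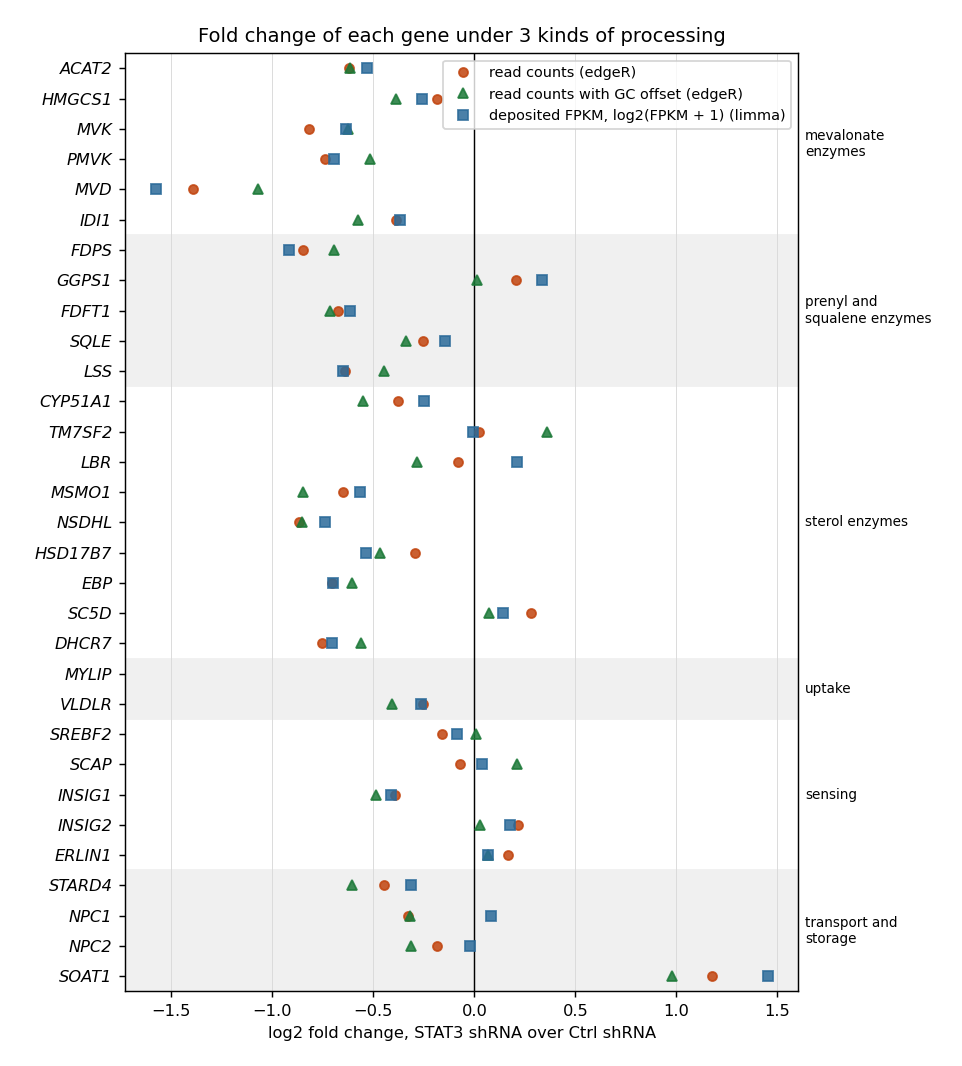
Log2 fold change of each gene, STAT3 shRNA over Ctrl shRNA, from read counts (circles), from read counts with a GC offset (triangles) and from deposited FPKM (squares). MVD stays the lowest and SOAT1 the highest under all 3, at -1.40, -1.07 and -1.58 for MVD and 1.18, 0.98 and 1.45 for SOAT1, and NPC1, LBR, SCAP and TM7SF2 lie on the other side of 0 in FPKM.

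Fold changes in these libraries moved with the GC content of the transcript, and the 2 Ctrl shRNA libraries differed in the same way from each other. Spearman's rho between log2 fold change and GC was -0.34 across all tested genes and -0.47 across the 30 members, while that of the first against the second Ctrl shRNA library was -0.45 and that of the STAT3 shRNA libraries 0.12. These are descriptions across genes, which share the 4 libraries. The members' median GC was 46.2%, against 48.7% over the tested genes with a GC value, with STARD4 lowest at 34.2% and TM7SF2 highest at 64.2%. With a per-library GC offset 21 members were lower and 2 higher, where 17.6% and 16.2% of all tested genes were. The added lower ones were HMGCS1, LBR, HSD17B7 and NPC2, and the 2 higher ones were SOAT1 and SCAP. Of the 20 enzymes 17 were lower with the offset.

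**Figure D5:**
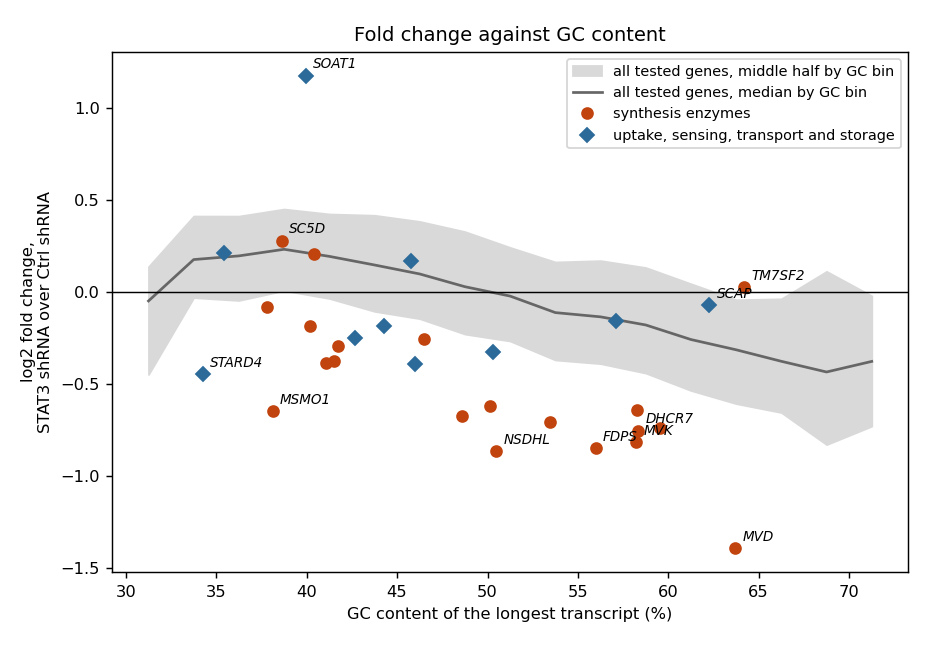
Log2 fold change, STAT3 shRNA over Ctrl shRNA, against GC content of the longest transcript for each tested member (circles, synthesis enzymes; diamonds, other members), with the median (line) and middle 50% (grey) of all tested genes by GC bin. MVD at -1.40, NSDHL at -0.87, FDPS at -0.85 and MSMO1 at -0.65 lie under the grey band and SOAT1 at 1.18 above it.

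Reads of some members may include those of an overlapping gene, because the use of strand is not stated. TM7SF2 overlaps VPS51 on the same strand, and VPS51 had 1650% as many reads over all libraries and was itself lower (-0.40 ± 0.10, adjusted p = 0.0115). ACAT2 overlaps TCP1 on the opposite strand, with 286% as many reads and no pass (-0.10 ± 0.10, adjusted p = 0.463). MVK overlaps MMAB, a gene of cobalamin metabolism that shares a promoter region with it, with 127% as many reads and a fall of its own (-0.56 ± 0.10, adjusted p = 0.00380). GGPS1 overlaps ARID4B at 100.4% as many reads (0.31 ± 0.13, adjusted p = 0.104), and ERLIN1, NPC1 and NPC2 overlap CHUK, RMC1 and ISCA2 at 53.2%, 39.95% and 37.4%. These shares count all reads of the overlapping gene and not only those in shared bases, so they do not give the part of a member's reads in doubt. On chromosome 11, for example, VPS51 ends at base 65111860 and TM7SF2 starts at base 65111845. How many reads of these 7 members come from shared bases was not tested. By sequence, only CYP51A1 had a near-identical copy (at least 95% identity over at least 50% of its longest transcript), with 1 read in all.

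Genes next to the members on the chromosome were read as well. The median log2 fold change of the 10 nearest tested genes on each side (fewer near a chromosome's end) ranged from -0.45 at MVD, where 7 of 20 neighbours were lower, to 0.27 at VLDLR. At DHCR7 the median was -0.30, with 8 of 20 neighbours lower. FDFT1 (0.17), CYP51A1 (0.25), MVK (0.15), STARD4 (0.24) and MSMO1 (0.08) were lower among neighbours with a median above 0. So were ACAT2 (0.06), IDI1 (0.20), SQLE (0.13) and NPC1 (0.20). SOAT1 lay among neighbours with a median of 0.18, of which 3 of 20 were higher.

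Further lists of pathway genes are set beside the shares of all tested genes, 18.7% lower and 16.8% higher. Of 11 further genes of SREBF activation and sterol-regulated degradation, 1 was lower (9.09%) and 0 were higher, both below those shares. The lower one was SREBF1, the relative of SREBF2 best known for driving fatty acid synthesis, at 156 and 153 CPM with STAT3 shRNA, against 233 and 257 CPM with Ctrl shRNA (-0.66 ± 0.09, adjusted p = 0.000638). Among 13 genes of the isoprenoid branches, which make dolichol, ubiquinone and prenylated proteins, 3 were lower (23.1%) and 1 was higher (7.69%). The lower ones were the prenyl transferase subunits FNTB (-0.67 ± 0.12, adjusted p = 0.00370) and RABGGTB (-0.58 ± 0.11, adjusted p = 0.00510) and the dolichol enzyme DHDDS (-0.32 ± 0.10, adjusted p = 0.0390), and the higher one was COQ2, of ubiquinone synthesis (0.43 ± 0.13, adjusted p = 0.0313). Without the first or the second STAT3 shRNA library, or the second Ctrl shRNA library, DHDDS (-0.37, -0.28 and -0.25, adjusted p = 0.180, 0.327 and 0.0608) and COQ2 (0.53, 0.33 and 0.32, adjusted p = 0.0675, 0.266 and 0.0691) did not pass.

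Of 16 further genes of intracellular transport and storage, 2 were lower (12.5%) and 3 higher (18.75%), near the shares of all tested genes, so the counts are no result about the list. GRAMD1B, which carries sterol from the plasma membrane to the endoplasmic reticulum, had 10.7 and 7.01 CPM with STAT3 shRNA, against 38.4 and 44.8 CPM with Ctrl shRNA, 4.63-fold lower (-2.21 ± 0.18, adjusted p = 7.31e-05). LIPA, the lysosomal lipase that frees cholesterol from its esters, was at 75.6 and 84.9 CPM, against 54.9 and 55.0 CPM (0.54 ± 0.09, adjusted p = 0.00249). The oxysterol-binding protein genes went both ways, with OSBPL9 higher (0.55 ± 0.08, adjusted p = 0.00137) and OSBP lower (-0.26 ± 0.08, adjusted p = 0.0380). CAV1, of the caveolar coat, was higher (0.27 ± 0.09, adjusted p = 0.0417). Without the first or the second STAT3 shRNA library OSBP (-0.28 and -0.25, adjusted p = 0.263 and 0.319) and CAV1 (0.30 and 0.23, adjusted p = 0.197 and 0.335) did not pass. Nor did CAV1 without the second Ctrl shRNA library (0.19, adjusted p = 0.0561) or LIPA without the second STAT3 shRNA library (0.46, 0.0582).

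Of the lipoprotein receptor, efflux and LXR list, 7 of 12 genes were tested, 3 of them lower (42.9%) and 0 higher. SCARB1, the receptor for high-density lipoprotein, had 175 and 175 CPM with STAT3 shRNA, against 300.3 and 332 CPM with Ctrl shRNA (-0.85 ± 0.08, adjusted p = 0.000184). LRP1, a broad lipoprotein receptor, was lower by less (-0.44 ± 0.10, adjusted p = 0.00835), as was its chaperone LRPAP1 (-0.57 ± 0.10, adjusted p = 0.00257). The sterol exporter ABCA1, named here after its values were seen, had 21 and 7 reads with STAT3 shRNA, against 0 and 0 with Ctrl shRNA, and was not tested. ABCG1, of the same list and not tested either, went the other way, with 9 and 1 reads against 7 and 13 reads. SCARB1 did not pass in FPKM (adjusted p = 0.0601), and LRP1 passed neither in FPKM (0.187) nor with the GC offset (0.0575) nor without the second STAT3 shRNA library (-0.35, 0.140).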

How the data were processed

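RNA sequencing covered 4 libraries, 2 a group, grouped by their labels. Per the file headers, the authors deposited 2 tables, one of raw counts of reads and one of FPKM. No aligner, counter, genome build, annotation, library kit or strand setting is given in the sources used here. Columns were matched by name: 2 carry "Si" and a number, taken here to mean STAT3 shRNA although no label explains it. Whether the number in a title is a replicate or a hairpin is not stated. The tables were joined by gene ID, since 14 symbols differ between them.

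The quasi-likelihood test of edgeR 4.0.16 (R 4.3.3) was run on the counts with TMM factors, filterByExpr, glmQLFit and glmQLFTest, two-sided, with group as the term. P-values were adjusted over 15199 genes by Benjamini-Hochberg, with 0.05 as the threshold, and the common dispersion was 0.00967. CPM are TMM-scaled. Errors are SDs of CPM over 2 libraries and SEs of log2 fold changes, with 95% intervals. Across genes, log2 CPM correlated at 0.9902 for the STAT3 shRNA pair, 0.9848 for the Ctrl shRNA pair and 0.9489 to 0.958 for pairs from different groups. Counts within a group differed beyond sampling noise (chi-square per degree of freedom 4.203 for STAT3 shRNA and 13.92 for Ctrl shRNA), so no library was merged. The floor of 3 reads covers counting error only. FPKM were tested with limma 3.58.1 on log2(FPKM + 1). Such fold changes understate those of low genes. Positions, GC content and transcripts come from GENCODE 29 (25996 gene IDs matched), copies from blastn 2.17.0 and promoters from RefSeq. Scripts were tested on simulated data.

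The members, lists and tests were chosen with earlier results of these data known. Named genes are every member, STAT3, checks of the line, and of each list at most the 3 called genes with the smallest p in each direction. Genes that overlap a member and markers of cell types are named besides that rule, as are ABCA1 and ABCG1, chosen after their values were seen. Alternatives were RLE and upper-quartile scaling, no filter on low counts, a filter at 5 CPM (2 libraries), a block for the replicate number, a GC offset (lowess, span 0.3), both together, leaving out each library, DESeq2 1.42.0, FPKM with a pseudocount of 1 or 0.1, and a threshold of 0.01. Protein sequences of paralogs were not analysed here.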

Additional observations from a re-analysis of the deposited data

How the results depend on the processing

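Of 19 members called, 11 kept their call under every alternative run: ACAT2, MVK, MVD, FDPS, FDFT1, LSS, MSMO1, NSDHL, EBP, DHCR7 and SOAT1. The cause of the other shifts was not tested. Against 17 members lower, 2 higher and 5396 genes called, FPKM gave 11 and 1 with 2535 genes (pseudocount 1) and 11 and 1 with 2494 genes (pseudocount 0.1). The threshold of 0.01 gave 14 and 1 with 2897 genes, as it must give fewer, and DESeq2 17 and 1 with 4445 genes. Leaving out 1 library gave 11 to 20 lower, 1 to 3 higher and 2527 to 7291 genes, with the upper ends without the first Ctrl shRNA library. The replicate block gave 16 and 2 with 5447 genes. Deviations of same-numbered libraries correlated at -0.0488, which cannot show whether they were paired, and the titles do not say. Directions turned for TM7SF2 without STAT3 shRNA replicate 2 (-0.11), without Ctrl shRNA replicate 1 (-0.12; the range over left-out libraries reached 0.15) and in FPKM (-0.0082 and -0.0063 with pseudocounts of 1 and 0.1). In FPKM they also turned for LBR (0.21 and 0.22), SCAP (0.0376 and 0.0390) and NPC1 (0.0814 and 0.0855). With the GC offset, alone and with the replicate block, they turned for SREBF2 (0.0091 and 0.0086) and SCAP (0.21 and 0.21), and for INSIG2 without STAT3 shRNA replicate 2 (-0.0845, with 0.48 without replicate 1 at the other end). All but NPC1 of these were not called to begin with. With 2 libraries a group, low genes such as VLDLR and INSIG2 have intervals that span about 1 on the log2 scale.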

Other observations

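Of 10 tested genes of fatty acid synthesis, 5 were lower (50%) and 2 higher (20%) with STAT3 shRNA, where 18.7% and 16.8% of all tested genes were, and 3 did not pass. FASN, the fatty acid synthase, had 732 and 680.1 CPM with STAT3 shRNA, against 1092 and 1195 CPM with Ctrl shRNA (log2 fold change -0.70 ± 0.08, SE, edgeR adjusted p = 0.000473). SCD, which desaturates its products, had 619.7 and 591 CPM, against 966 and 1000.5 CPM (-0.70 ± 0.08, adjusted p = 0.000310), and ACSS2, which makes acetyl-CoA from acetate, had 22.2 and 21.1 CPM, against 36.9 and 45.0 CPM (-0.92 ± 0.12, adjusted p = 0.000702). The elongase ELOVL6 was higher (0.46 ± 0.10, adjusted p = 0.00719), a call lost without the first (0.44, adjusted p = 0.0903) or the second (0.47, 0.0760) STAT3 shRNA library, and so was the desaturase FADS2 (0.33 ± 0.10, adjusted p = 0.0291), a call lost without the first (0.27, 0.296) or the second (0.39, 0.115) STAT3 shRNA library and without the first Ctrl shRNA library (0.21, 0.0528).

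Of 13 genes of bile acid synthesis 4 were tested, of which 1 was lower (25%) and 0 were higher. Among all tested genes 18.7% were lower and 16.8% higher, so this count is no result about the list. SLC27A5, which couples bile acids to coenzyme A in liver, had 4.16 and 5.60 CPM with STAT3 shRNA, against 13.4 and 12.8 CPM with Ctrl shRNA (-1.44 ± 0.19, adjusted p = 0.000702).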
